A study of Mus musculus with 16 samples.

Results

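Neutrophil genes were followed in healing skin wounds of mice with and without mechanical load. The set holds 8 genes chosen by symbol, namely S100a8 and S100a9 (calprotectin), the lectin receptors Clec4d and Clec4e, the receptors Trem1 and Csf3r, and the formyl peptide receptors Fpr1 and Fpr2. A probe set carrying only that gene's symbol was found for 7 of the 8, in 9 probe sets, out of 18194 genes and 34958 such probe sets in the table. Fpr1 is not analysed here. Where a gene had more than 1 probe set, the most variable one (by interquartile range) stands for it.

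All animals were wild-type C57BL/6 mice with an incision on the back, in a model of hypertrophic scarring, and no group carried a genetic change. Wounds without load (unstressed) and with load (stressed) were harvested on day 6 after injury, when stressed wounds had been loaded for 48 hours, and on day 14, by when they had been loaded for 10 days. There are 4 Affymetrix arrays in each of these 4 groups, and the design text speaks of 4 mice per group at either time, so n = 4 and the spread is between animals. The text does not say whether stressed and unstressed wounds of the same replicate number shared an animal.

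Neutrophils are short-lived white blood cells that enter a wound early and are normally cleared as it heals. They store antimicrobial proteins in granules, sense bacterial formyl peptides and tissue damage through surface receptors, and depend on the growth factor G-CSF. None of the genes described is confined to neutrophils: monocytes and macrophages also use most of these receptors, and keratinocytes at a wound edge make S100a8 and S100a9.

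Values are centred log2 signals. The authors had subtracted a reference from each probe set, so 0 is no absolute level, levels of different genes cannot be compared, and detection cannot be judged. The log base is not stated and was read as 2, and a natural log would make every difference larger than printed. In tissue, fewer cells of a type and less RNA per cell cannot be told apart.

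The arrays fell into 2 classes that cut across loading. Replicates 3 and 4 of both day 14 groups were high in Xist, an RNA made from the silenced X chromosome of females (5.98 to 6.30), and the other 12 arrays were low (-0.53 to 0.81). The means of 3 Y-linked genes ran the other way (-3.97 to -3.53 against -0.99 to 0.74), although every sample is labelled female. Loading differences of day 14 are therefore also given within each class. These fits hold 2 arrays in each day 14 group and all arrays of day 6, which add to the estimate of spread. All day 6 arrays are low in Xist. Time differences with only the high Xist arrays of day 14 thus compare 2 Xist classes as well as 2 days, and so does the difference of the loading effects in part. Time differences over all arrays also mix the classes, since replicates 3 and 4 of both day 14 groups are high in Xist. Same-numbered stressed and unstressed arrays of day 14 deviated together, with correlations of 0.18 to 0.30 over all genes. Stressed replicates 1 and 3 correlated best with their own number, and replicates 2 and 4 did not. Because the Xist classes follow the replicate numbers, a block by number also takes up Xist class, and these correlations do not show shared animals. The fit with the replicate number as a block is given where it changes a call.

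In unstressed wounds most of the genes fell between day 6 and day 14, and in stressed wounds most did not pass as lower. Of the 7 genes, 5 fell in unstressed wounds (Clec4d, S100a8, Fpr2, Clec4e and Csf3r), by 1.45 to 3.18 on the log2 scale, where 31.8% of all genes fell and 23.1% rose. With only the low Xist arrays of day 14 the same 5 passed as lower (adjusted p = 0.00029 to 0.032). After quantile normalization Clec4d, Csf3r and Fpr2 did. In those fits 9045 and 8918 of all 18194 genes passed in either direction. In stressed wounds only Clec4d fell, where 34.3% of all genes fell and 24.0% rose. At day 14, Clec4d and S100a8 were higher in stressed than in unstressed wounds, 2 of 7 genes, where 3.88% of all genes passed as higher and 4.27% as lower. When 1 array was left out, the adjusted p ran from 0.0018 to 0.0097 for Clec4d and from 0.016 to 0.13 for S100a8. The call of S100a8 thus depended on single arrays. With the replicate number as a block, which also takes up Xist class, S100a9, Fpr2 and Csf3r passed as well, 5 of 7. There 3.36% of all genes passed as higher. With only the day 14 arrays Clec4d alone passed, where 95 of all 18194 genes passed in either direction. After quantile normalization 0 of 7 passed, where 282 genes did. At day 6, 0 of 7 genes differed between stressed and unstressed wounds in limma (background 0.0550%), and 0 of 7 did so at an unadjusted p under 0.05, or 1 of 7 (S100a8) after quantile normalization.

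**Figure D1:**
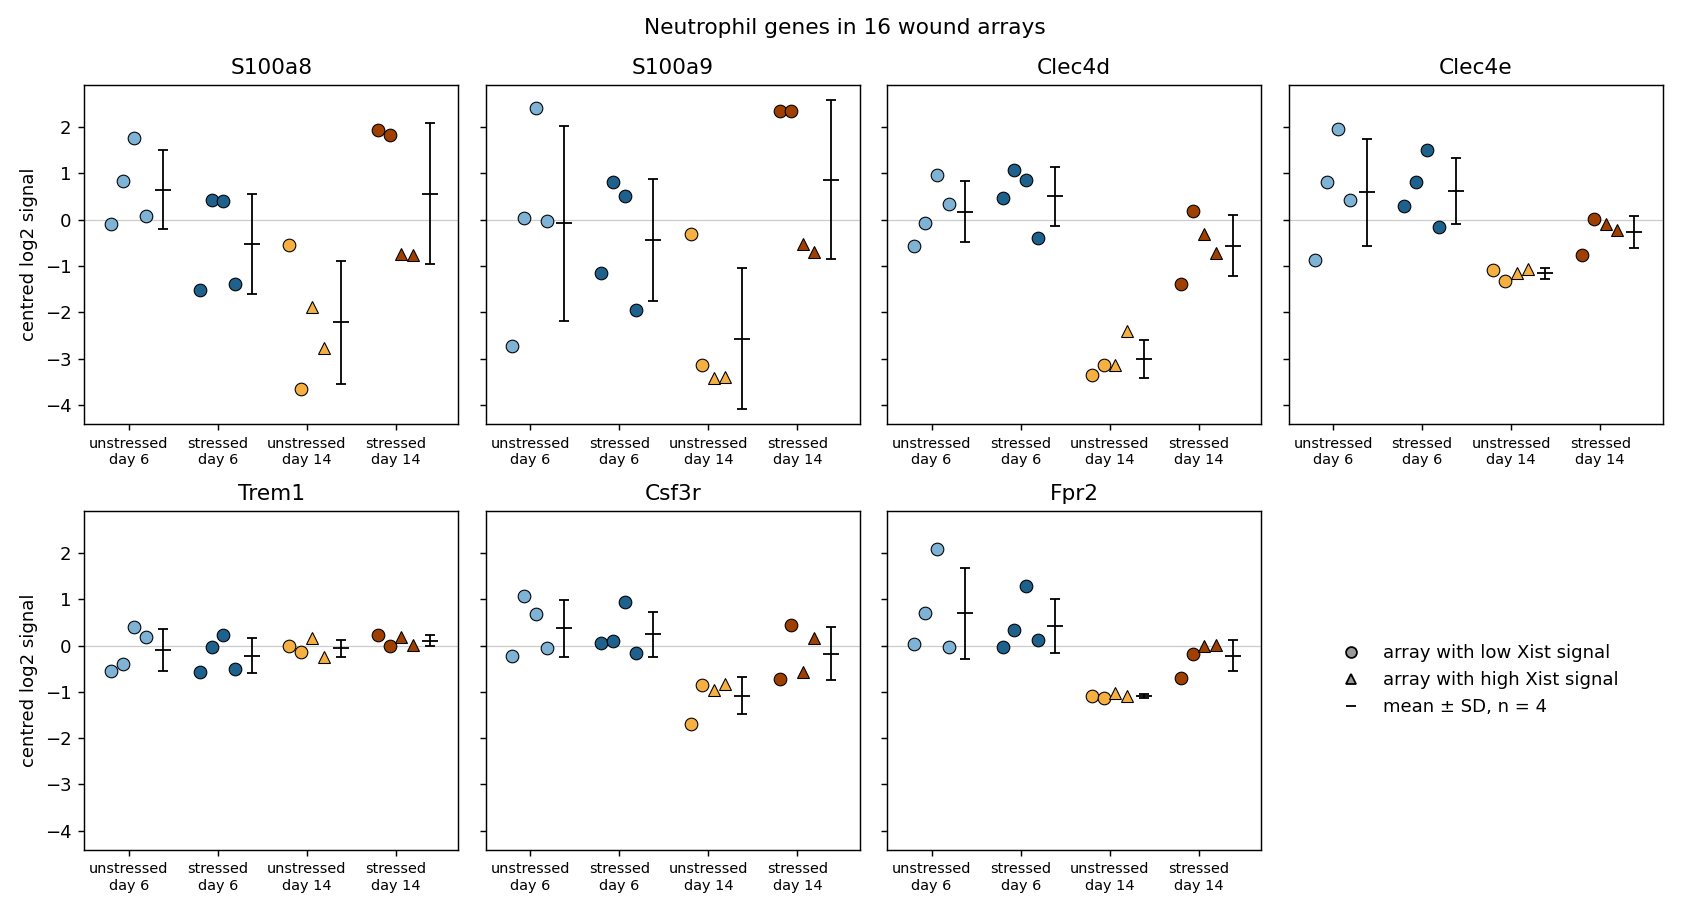
Centred log2 signal of 7 neutrophil genes in each of 16 arrays, by group, with the group mean and SD (n = 4) at the right of each group. Triangles are arrays with a high Xist signal. For Clec4d the 4 unstressed arrays of day 14 (-3.34 to -2.40) lie below all other arrays.

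S100a8 and S100a9 encode the small calcium-binding proteins that pair as calprotectin, an abundant protein of the neutrophil cytosol that binds zinc and manganese and signals tissue damage. They are neighbours on chromosome 3, with 0 protein-coding genes between them in the RefSeq table. Because these genes had the widest differences at day 14, the 250 bases before their starts are shown, from RefSeq on GRCm38.p6, 5′ to 3′ on the gene's strand. The S100a8 window is chr3:90668821-90669070 (plus strand) and the S100a9 window chr3:90695722-90695971 (minus strand). Capitals mark matches, on either strand, to GAGGAA (a core bound by PU.1, the myeloid master regulator), TTGCNNAA (C/EBP) and GGGANTTTC (NF-kB).
S100a8: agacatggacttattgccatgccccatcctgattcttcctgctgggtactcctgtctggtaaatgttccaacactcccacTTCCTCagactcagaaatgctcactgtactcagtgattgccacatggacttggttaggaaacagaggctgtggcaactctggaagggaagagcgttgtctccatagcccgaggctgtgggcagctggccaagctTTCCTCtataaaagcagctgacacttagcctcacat
S100a9: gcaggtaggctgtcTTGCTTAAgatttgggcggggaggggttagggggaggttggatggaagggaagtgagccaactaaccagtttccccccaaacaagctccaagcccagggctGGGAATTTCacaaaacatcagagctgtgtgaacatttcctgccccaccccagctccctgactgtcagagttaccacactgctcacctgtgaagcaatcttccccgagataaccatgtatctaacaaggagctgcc

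The S100a8 window held GAGGAA at 2 places, 170 to 165 and 36 to 31 bases before the start, both on the opposite strand. In the S100a9 window a C/EBP match lay 236 to 229 bases and an NF-kB match 135 to 127 bases before the start, and the GAGGAA core was absent. Across the 8 genes, GAGGAA was in 6 windows, TTGCNNAA in 2, GGGANTTTC in 1 and the AP-1 motif TGANTCA in 0. Of the 32851 windows of that length in the RefSeq table, 23.3%, 9.56%, 0.941% and 6.75% held them. These are letter matches in a short window, with no binding measured.

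For S100a8 the unstressed wounds of day 14 were lowest, at -0.54, -3.65, -1.89 and -2.78 in replicates 1 to 4. Stressed wounds of the same day read 1.93, 1.82, -0.74 and -0.76. The groups overlapped only through unstressed replicate 1, which lay above stressed replicates 3 and 4. S100a8 rose with loading at day 14 by 2.78 (SE 0.77, adjusted p = 0.038), 6.86-fold, from -2.21 ± 1.33 to 0.57 ± 1.51 (SD, n = 4). With 2 arrays per group of day 14, S100a8 was 3.97 higher in the low Xist arrays (adjusted p = 0.014) and 1.59 higher in the high Xist arrays (adjusted p = 0.33). The call did not hold with only the day 14 arrays (adjusted p = 0.14, or 0.070 with Xist class as a block), after quantile normalization (0.34), or without unstressed replicates 2, 3 or 4 (0.10, 0.056 and 0.075) or stressed replicates 1 or 2 (0.11 and 0.13) of day 14.

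At day 6, S100a8 read -0.10, 0.84, 1.77 and 0.08 in unstressed and -1.51, 0.43, 0.39 and -1.40 in stressed wounds. Stressed replicates 1 and 4 were low and the groups overlapped, with a difference of -1.17 (95% interval -2.80 to 0.47, adjusted p = 0.92). After quantile normalization it was -2.11 (unadjusted p = 0.039, adjusted p = 0.26). From day 6 to day 14, S100a8 fell by 2.86 in unstressed wounds (SE 0.77, adjusted p = 0.0061), and all 4 arrays of day 14 lay below all 4 of day 6. After quantile normalization this fall was -2.27 and missed the threshold (adjusted p = 0.055). In stressed wounds the difference over time was 1.08 (95% interval -0.55 to 2.72, adjusted p = 0.23), 2.40 with only the low Xist arrays of day 14 (adjusted p = 0.027) and -0.23 with only the high ones (adjusted p = 0.78). The order of the group means, from lowest, was unstressed day 14, stressed day 6, stressed day 14 and unstressed day 6, and the last pair in it differed by less than their SDs.

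S100a9 followed the same arrays with a wider spread. At day 14 it read -0.30, -3.14, -3.43 and -3.39 in unstressed and 2.36, 2.34, -0.52 and -0.70 in stressed wounds. As for S100a8, stressed replicates 1 and 2 were the highest arrays and unstressed replicate 1 alone reached into the stressed range. The difference of 3.43 (SE 1.06), or 10.8-fold, was the largest of the 7 genes but did not pass (adjusted p = 0.058), and it passed with the replicate number as a block (adjusted p = 0.013) and with Xist class as a block (adjusted p = 0.022), with array weights (0.041) and without the genes under the median interquartile range (0.044). It also passed without unstressed replicate 1 (adjusted p = 0.035) or stressed replicate 4 of day 14 (adjusted p = 0.030). Within the Xist classes it was 4.07 in low and 2.80 in high arrays (adjusted p = 0.062 and 0.32).

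At day 6, S100a9 spanned -2.73 to 2.41 in unstressed wounds, with replicate 1 the lowest and replicate 3 the highest, and -1.94 to 0.81 in stressed wounds. The loading difference there was -0.36 (95% interval -2.62 to 1.89), so a change of 2-fold either way lies inside its error, and it was -1.26 after quantile normalization (adjusted p = 0.70). Over time S100a9 differed by -2.48 in unstressed wounds (SE 1.06, adjusted p = 0.058), and passed without replicate 1 of unstressed day 6 (-3.37, adjusted p = 0.014) or of unstressed day 14 (-3.24, adjusted p = 0.019), or with only the high Xist arrays of day 14 (-3.33, adjusted p = 0.024). It was -1.64 with only the low Xist arrays and -1.32 with Xist class as a block (adjusted p = 0.28 in both). In stressed wounds it differed by 1.31 (95% interval -0.94 to 3.57, adjusted p = 0.30), and by 2.47 with Xist class as a block (adjusted p = 0.048).

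Clec4d and Clec4e, the C-type lectin receptors MCL and Mincle, bind microbial glycolipids and, for Mincle, products of dead cells, and signal through the Fc receptor gamma chain and the kinase Syk. They are adjacent on chromosome 6, with 0 protein-coding genes between them in the RefSeq table, and changed by different amounts, so both windows before their starts are shown in the same way. That of Clec4d is chr6:123261857-123262106 (plus strand) and that of Clec4e chr6:123289872-123290121 (minus strand), on GRCm38.p6.
Clec4d: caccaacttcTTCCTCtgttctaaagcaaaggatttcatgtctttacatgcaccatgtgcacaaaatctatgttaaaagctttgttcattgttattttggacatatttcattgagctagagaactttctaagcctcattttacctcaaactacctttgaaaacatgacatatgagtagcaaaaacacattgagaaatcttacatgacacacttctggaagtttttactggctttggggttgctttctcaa
Clec4e: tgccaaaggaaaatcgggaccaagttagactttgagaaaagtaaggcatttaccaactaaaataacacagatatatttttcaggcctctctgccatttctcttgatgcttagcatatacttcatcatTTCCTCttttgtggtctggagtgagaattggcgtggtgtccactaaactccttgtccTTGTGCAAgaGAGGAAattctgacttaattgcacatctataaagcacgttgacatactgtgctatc

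In the Clec4e window a C/EBP match (66 to 59 bases before the start) and a GAGGAA core (56 to 51 bases before) lay side by side, with a further core at 123 to 118. The Clec4d window held 1 core, at 240 to 235.

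Clec4d had the smallest adjusted p of the 7 genes for loading at day 14 and for time in either kind of wound. In unstressed wounds of day 14 it read -3.34, -3.14, -3.13 and -2.40, and in stressed wounds -1.39, 0.18, -0.31 and -0.71. All 4 stressed arrays lay above all 4 unstressed arrays. It rose with loading by 2.45 (SE 0.39, adjusted p = 0.0023), 5.46-fold, from -3.01 ± 0.41 to -0.56 ± 0.67 (SD, n = 4). The difference was 2.64 in low and 2.26 in high Xist arrays (adjusted p = 0.0090 and 0.037), and it missed the threshold only after quantile normalization (1.76, adjusted p = 0.095) among the alternatives tried.

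At day 6 Clec4d read -0.58, -0.06, 0.98 and 0.34 in unstressed and 0.47, 1.07, 0.86 and -0.39 in stressed wounds. These ranges overlapped almost fully, and the difference was 0.33 (95% interval -0.49 to 1.16, adjusted p = 0.997). In unstressed wounds Clec4d fell by 3.18 from day 6 to day 14 (SE 0.39, adjusted p = 2.3e-05), 9.04-fold. In stressed wounds it fell by 1.06 (SE 0.39, adjusted p = 0.028), and the days overlapped. That smaller fall did not pass without replicates 1, 2 or 3 of stressed day 6 (adjusted p = 0.052, 0.082 and 0.076) or replicates 1 or 4 of stressed day 14 (0.099 and 0.056), after quantile normalization (0.11), or with only the low or the high Xist arrays of day 14 (0.077 and 0.076). From lowest, the group means ran unstressed day 14, stressed day 14, unstressed day 6 and stressed day 6, and the 2 groups of day 6 differed by less than their SDs.

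Clec4e moved in the same directions over a smaller range. In unstressed wounds of day 14 its arrays were close together, at -1.09, -1.33, -1.16 and -1.06. Stressed wounds read -0.76, 0.02, -0.09 and -0.21, and no array overlapped. The difference of 0.90 (SE 0.45) did not pass (adjusted p = 0.24), nor with the replicate number as a block (adjusted p = 0.081), in a fit whose error includes the wide spread of day 6. With only the day 14 arrays it did not pass (adjusted p = 0.072), and with Xist class as a block added it did (adjusted p = 0.039). It was 0.84 in low and 0.96 in high Xist arrays (adjusted p = 0.46 and 0.59).

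Day 6 arrays of Clec4e ran from -0.86 to 1.96 in unstressed and from -0.16 to 1.5 in stressed wounds, with replicate 3 highest in both. The loading difference was 0.02 (95% interval -0.93 to 0.98). In unstressed wounds Clec4e fell by 1.75 over time (SE 0.45, adjusted p = 0.0047), and all day 14 arrays lay below all day 6 arrays. This call did not hold after quantile normalization (-1.49, adjusted p = 0.065). In stressed wounds the difference was -0.87 (SE 0.45, adjusted p = 0.11), and it passed with only the stressed arrays (adjusted p = 0.047). The other probe set of Clec4e varied little and gave -0.28 over time in unstressed wounds (adjusted p = 0.16) and 0.13 for loading at day 14 (adjusted p = 0.65), so the values of this gene rest on 1 of its 2 probe sets.

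Trem1, a receptor that amplifies inflammatory signals through the adaptor DAP12 (gene Tyrobp), did not move with the others between groups. Its 16 arrays lay between -0.57 and 0.40. The difference with loading was -0.13 at day 6 (95% interval -0.59 to 0.32) and 0.16 at day 14 (95% interval -0.29 to 0.61, adjusted p = 0.71), where it was 0.18 in low and 0.14 in high Xist arrays. Over time it was 0.03 in unstressed and 0.32 in stressed wounds (adjusted p = 0.91 and 0.20). In the second Trem1 probe set all 4 stressed arrays of day 14 (0.00 to 0.23) lay above the unstressed ones (-0.40 to -0.09), a difference of 0.37 that did not pass (adjusted p = 0.29).

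Csf3r, the receptor for G-CSF, which drives the making and release of neutrophils, read -1.69, -0.84, -0.96 and -0.83 in unstressed wounds of day 14. Stressed wounds read -0.73, 0.45, -0.57 and 0.16, all above the unstressed ones. The difference of 0.91 (SE 0.34) did not pass (adjusted p = 0.11), and passed with the replicate number as a block (adjusted p = 0.039). It was 1.12 in low and 0.69 in high Xist arrays (adjusted p = 0.15 and 0.53). At day 6 the arrays ran from -0.22 to 1.07 in unstressed and from -0.15 to 0.95 in stressed wounds and overlapped (difference -0.13, 95% interval -0.85 to 0.59). Csf3r fell by 1.45 over time in unstressed wounds (SE 0.34, adjusted p = 0.0025), 2.73-fold with no overlap, and differed by -0.41 in stressed wounds (adjusted p = 0.30).

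Fpr2, a receptor for formyl peptides and for the host ligands annexin A1 and serum amyloid A, had its tightest group in unstressed wounds of day 14, at -1.08, -1.14, -1.03 and -1.09. The stressed wounds read -0.71, -0.18, -0.01 and 0.01, again without overlap. The difference of 0.86 (SE 0.38) did not pass (adjusted p = 0.18), and passed with the replicate number as a block (adjusted p = 0.022). With only the day 14 arrays it did not pass (adjusted p = 0.069), and with Xist class as a block added it did (adjusted p = 0.030). It was 0.67 in low and 1.06 in high Xist arrays (adjusted p = 0.49 and 0.45). At day 6 replicate 3 was the highest array in both groups (2.08 unstressed, 1.28 stressed), and the loading difference was -0.27 (95% interval -1.08 to 0.54). Fpr2 fell by 1.78 over time in unstressed wounds (SE 0.38, adjusted p = 0.0015), and differed by -0.65 in stressed wounds (SE 0.38, adjusted p = 0.16).

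Set side by side, the loading difference at day 14 was above 0 for all 7 genes, where 51.2% of all genes were, and its median was 0.91 against 0.01 over all genes. The genes were read on the same arrays, so these are not 7 separate results. The arrays of the groups did not overlap for 4 of them (Clec4d, Clec4e, Csf3r and Fpr2), where 5.86% of all genes were higher without overlap. Over time in unstressed wounds the median was -1.78, against -0.09 over all genes, and 5 genes were lower without overlap, where 27.9% of all genes were. In stressed wounds the median was -0.41, against -0.14, and 0 of 7 genes were lower without overlap, where 29.1% of all genes were. Both loading and time comparisons of day 14 share the unstressed arrays of that day. Whether loading acted differently on the 2 days, which is the same test as whether time acted differently in stressed and unstressed wounds, passed for 0 of 7 genes in limma (background 0.0385%), and 4 of 7 had an unadjusted p under 0.05. No share of all genes at that unadjusted threshold is given, so this count shows no excess. Its values were 3.94 for S100a8 (SE 1.09, adjusted p = 0.24), 3.79 for S100a9 (SE 1.5, adjusted p = 0.39) and 2.11 for Clec4d (SE 0.55, adjusted p = 0.22). With array weights S100a8 (4.62) and Clec4d (2.16) passed (adjusted p = 0.040 and 0.045). With only the low Xist arrays of day 14, 2 per group, S100a8 did (5.14, adjusted p = 0.022). In the fit of all arrays a different loading response at day 14 than at day 6 was not shown for any of them.

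**Figure D2:**
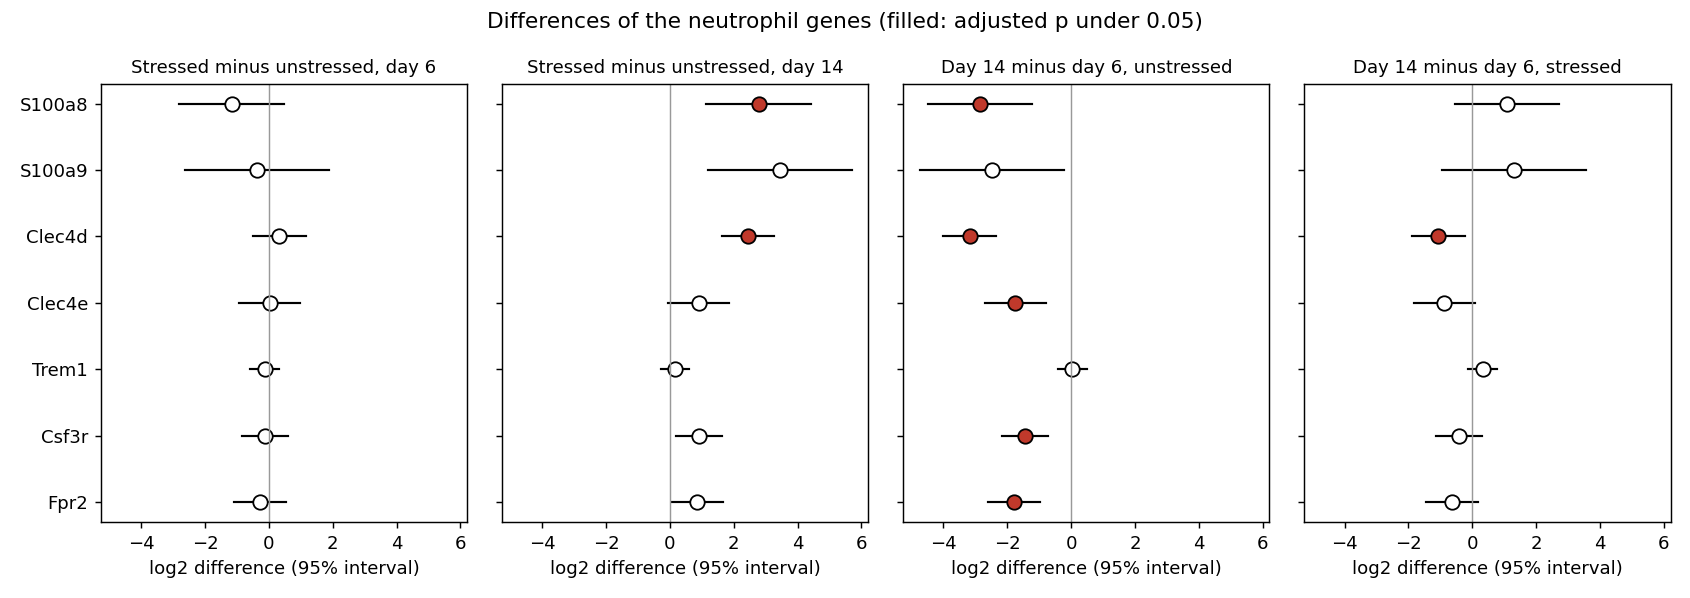
Log2 differences of the 7 genes with their 95% intervals, for loading at each day (stressed minus unstressed) and for time (day 14 minus day 6) in each kind of wound. Filled points passed an adjusted p of 0.05: Clec4d and S100a8 for loading at day 14, 5 genes for time in unstressed wounds and Clec4d for time in stressed wounds.

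Other markers listed for neutrophils, taken from outside the set, ran the other way over time in unstressed wounds. There 7 of 8 lay above 0, where 6 of the 7 genes described lay below it. Of all genes, 45.4% lay above 0 and 54.6% below. Of 10 listed, 8 were measured (Cxcr2, Mpo, Elane, Camp, Ngp, Ltf, Cd177 and Mmp8), and Ly6g and Retnlg were not. With loading at day 14, 7 of the 8 lay above 0 (median 0.27), where 51.2% of all genes did. Of the 8, 1 passed as higher, where 3.88% of all genes did, the chemokine receptor Cxcr2 (0.63, SE 0.19, adjusted p = 0.047). Their mean per array was -0.21 to 0.00 in unstressed and -0.24 to 0.18 in stressed wounds of day 6. On day 14 it was 0.16 to 0.28 in unstressed and 0.41 to 0.64 in stressed wounds, without overlap. From day 6 to day 14, 3 of the 8 rose and 0 fell in unstressed wounds, where 23.1% of all genes rose and 31.8% fell. In stressed wounds 5 rose and 0 fell, where 24.0% of all genes rose and 34.3% fell. There 6 of the 8 lay above 0, where 43.9% of all genes did, and the 7 genes described were split, with 3 above and 4 below. All of the 8 but Cxcr2 are also on the list of granule proteins below, so the comparison covers mainly granule genes. The genes described did not follow these markers over time in unstressed wounds, and they are called neutrophil genes by the rule that chose them.

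Markers of other cells moved in some of the same comparisons. Over all genes, 3.88% rose and 4.27% fell with loading at day 14. Over time 23.1% rose and 31.8% fell in unstressed wounds, and 24.0% rose and 34.3% fell in stressed wounds. Of 11 macrophage markers, 7 rose and 0 fell with loading at day 14, and 8 fell and 0 rose over time in unstressed wounds. In stressed wounds 8 of the 11 also fell over time (median -1.02), where 1 of the 7 neutrophil genes did (median -0.41). Their mean per array was -2.09 to -1.33 in unstressed and -1.10 to -0.04 in stressed wounds of day 14, against -0.40 to 0.62 and 0.34 to 0.69 at day 6. Of 4 monocyte markers, 2 rose with loading at day 14, and 3 fell over time in each kind of wound. Of 7 wound keratinocyte markers, 0 passed in limma with loading at day 14 and 5 had an unadjusted p under 0.05, and the keratin of wound-edge cells Krt6b had the largest difference (3.69, SE 1.11, adjusted p = 0.053). Their mean was -2.31 to -1.08 in unstressed arrays of day 14, and in stressed arrays 0.46, 0.56, -0.59 and -2.0 for replicates 1 to 4. Stressed replicates 1 and 2, which are the low Xist arrays of that group, were thus the higher arrays for these markers as for S100a8 and S100a9. At day 6, unstressed replicates 1 and 2 had the lowest means (-1.32 and -1.36) and replicate 3 the highest (0.85). S100a8 was also highest in replicate 3 there, but replicate 2 (0.84) lay above replicates 1 and 4. In stressed wounds of day 6, replicate 4 was low for both (-0.31, and -1.40 for S100a8). Replicate 1 was low only for S100a8 (-1.51, against 0.34 for the markers). Over time in unstressed wounds 3 of the 7 fell and 1 rose, and in stressed wounds 0 passed. With loading at day 14, 3 of 5 fibroblast markers rose, 3 of 4 adipocyte and 2 of 5 skeletal muscle markers fell, and 0 passed of 5 basal keratinocyte, 6 mast cell, 4 T cell, 3 B cell and 3 blood markers. The part of any of these cells in the values of the neutrophil genes was not tested.

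**Figure D3:**
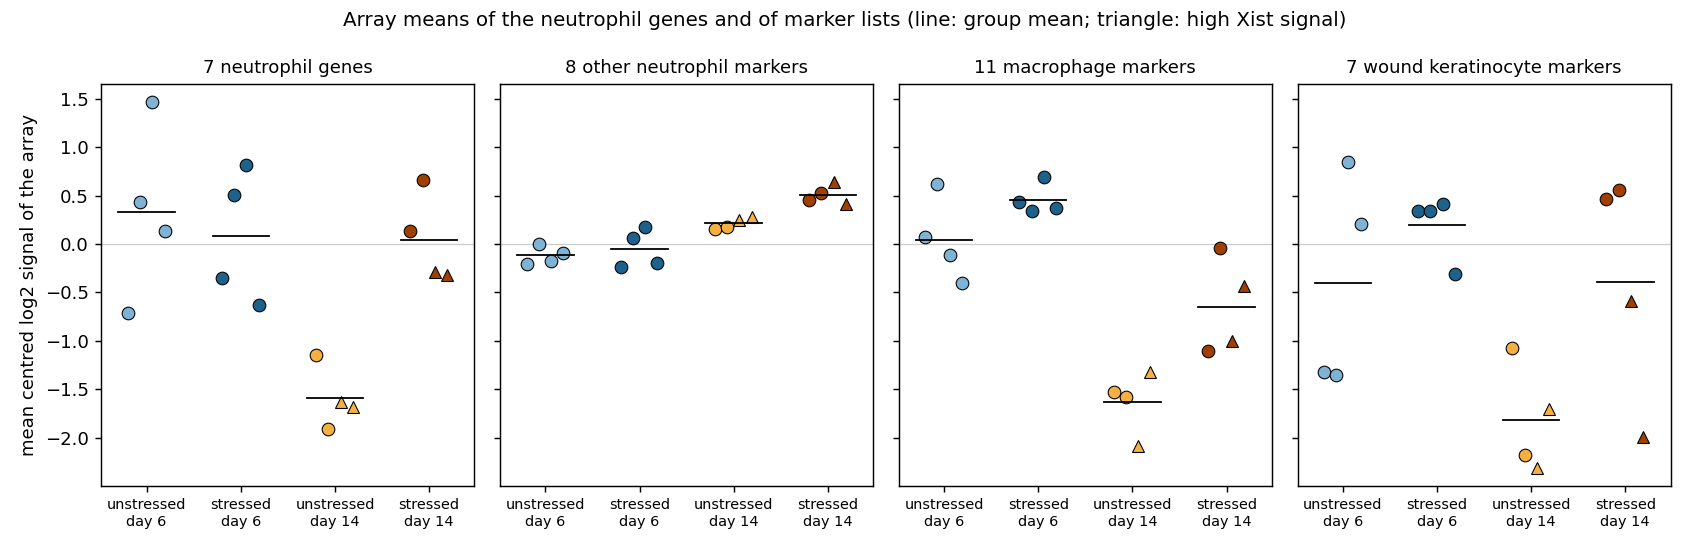
Mean centred log2 signal per array of the 7 neutrophil genes and of 3 marker lists, by group; lines are group means and triangles arrays with a high Xist signal. Unstressed wounds of day 14 are low for the neutrophil genes (-1.91 to -1.15) and macrophage markers, and not for the other neutrophil markers (0.16 to 0.28).

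Other genes of neutrophil biology were read from 7 lists. Their counts stand against the shares of all genes: 3.88% rose and 4.27% fell with loading at day 14. Over time 23.1% rose and 31.8% fell in unstressed wounds, and 24.0% rose and 34.3% fell in stressed wounds. Granule proteins, which kill and digest microbes, showed 0 of 15 measured genes past the threshold with loading at day 14 in limma (median 0.25), and 3 had an unadjusted p under 0.05. The 4 smallest p-values belonged to the protease cathepsin G, Ctsg (0.41, adjusted p = 0.091), haptoglobin, Hp (-2.01, adjusted p = 0.12), the chitinase-like Chil3 (1.75, adjusted p = 0.15) and lactoferrin, Ltf (0.34, adjusted p = 0.26). Over time in unstressed wounds 3 fell, namely the gelatinase Mmp9 (-2.43, SE 0.56), Chil3 (-2.88, SE 0.72) and the peptidoglycan-binding Pglyrp1 (-1.16, SE 0.35), and 3 rose, among them myeloperoxidase, Mpo (0.72, SE 0.17).

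Surface receptors of the list are for the most part shared with other myeloid cells. Of 11 measured, 6 rose with loading at day 14 and 1 fell (median 0.72). Those with the smallest p-values were the integrin chain Itgb2 (1.78, SE 0.33, adjusted p = 0.0057), the Fc receptors Fcgr3 (1.19, adjusted p = 0.015) and Fcgr4 (1.16, adjusted p = 0.022), and the decoy interleukin-1 receptor Il1r2, which fell by 1.18 (adjusted p = 0.014). In unstressed wounds 8 of the 11 fell over time and 1 rose, with Itgb2 at -2.74 and the P-selectin ligand Selplg at -1.59, and in stressed wounds the counts were also 8 and 1.

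The oxidase that makes superoxide in phagocytes moved in the same directions. Of 5 subunits measured, 3 rose with loading at day 14 and 0 fell: the catalytic Cybb (2.14, SE 0.30, adjusted p = 0.0010), Ncf4 (1.28, adjusted p = 0.011) and Cyba (1.29, adjusted p = 0.019). All 5 fell over time in unstressed wounds, led by Cybb (-3.65, SE 0.30), and all 5 in stressed wounds, where Cybb fell by 1.59 (SE 0.30).

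Ligands and signalling partners of the receptors rose in 5 of 18 genes with loading at day 14, and 0 fell (median 0.31). They were Clec4n, the lectin receptor Dectin-2 that uses the same adaptor as Clec4e (3.51, SE 0.37, adjusted p = 0.00012), the Trem1 adaptor Tyrobp (1.98, SE 0.24, adjusted p = 0.00039), the Toll-like receptor 4 partner Ly96 (1.08, adjusted p = 0.0039), the Fc receptor gamma chain Fcer1g (1.35, adjusted p = 0.0064) and the Fpr2 ligand Saa3 (3.80, SE 0.94, adjusted p = 0.023). The kinase Syk (0.34, adjusted p = 0.21) and annexin A1, Anxa1 (0.08, adjusted p = 0.94), did not pass. In unstressed wounds 12 fell over time, with Clec4n at -3.99 and Tyrobp at -2.89, and 1 rose, Ager (0.72), a proposed receptor of S100 proteins. In stressed wounds also 12 fell and 1 rose (median -1.02), with Clec4n at -1.02 and Tyrobp at -1.16.

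Of 12 attractants and growth factors, 0 passed with loading at day 14 in limma, and 4 had an unadjusted p under 0.05. The values were 0.44 for G-CSF, Csf3 (SE 0.14, adjusted p = 0.077), 2.16 for the neutrophil attractant Cxcl5 (SE 0.87, adjusted p = 0.14), -0.50 for Il17a (adjusted p = 0.15) and 1.12 for Il1b (SE 0.48, adjusted p = 0.17). Over time in unstressed wounds 5 fell, with the attractant Cxcl2 at -4.32 (SE 0.61) and Il1b at -2.50 (SE 0.48), and 2 rose, Il17a (1.40) and Csf2 (0.49). In stressed wounds 6 fell, with Cxcl2 at -2.63, and 2 rose, among them Csf3 (0.78, SE 0.14).

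Among 6 transcription factors of myeloid cells, 2 rose with loading at day 14, Spi1, which encodes PU.1 (1.42, SE 0.26, adjusted p = 0.0049), and Runx1 (1.39, SE 0.36, adjusted p = 0.029). Cebpa (-0.33, adjusted p = 0.31) and Cebpd (-0.66, adjusted p = 0.46) did not pass. Spi1 (-2.41), Cebpb (-1.68) and Runx1 (-1.33) fell over time in unstressed wounds. Of 10 other S100 genes measured, 0 passed in limma with loading at day 14 and 3 had an unadjusted p under 0.05, with a median of -0.26, below that of all genes. At day 6, 0 of the 77 genes of the 7 lists passed for loading in limma, and 4 had an unadjusted p under 0.05. The smallest p-values there belonged to the attractant Cxcl1 (2.09, adjusted p = 0.46), the collagenase of neutrophil granules Mmp8 (1.04, adjusted p = 0.46) and the cytokine Il6 (1.70, adjusted p = 0.51). The median of the lists ran from 0.04 for granule proteins to 0.34 for the oxidase.

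**Figure D4:**
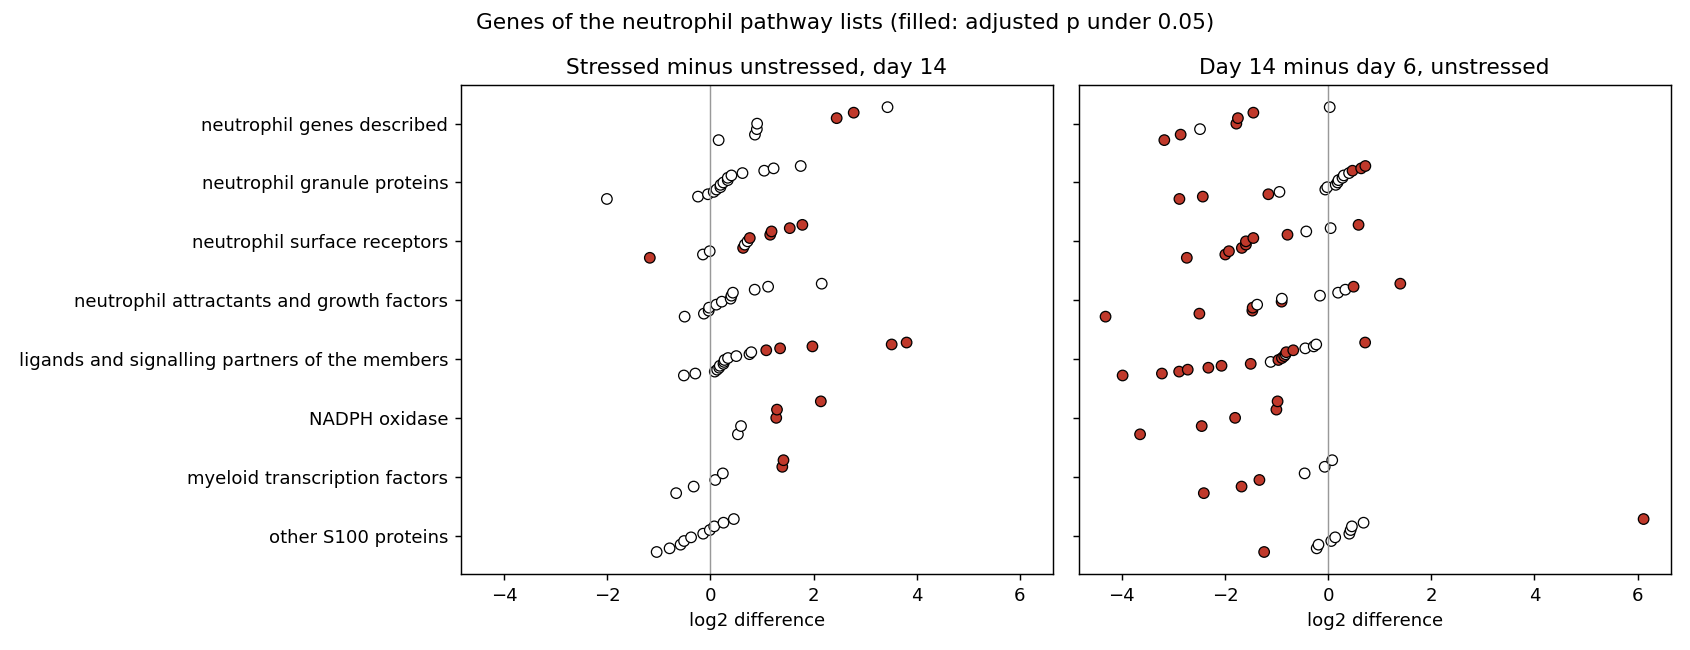
Log2 differences of each gene in the 7 lists and of the 7 neutrophil genes, for loading at day 14 (left) and time in unstressed wounds (right); filled points passed an adjusted p of 0.05. On the left, surface receptors hold 6 filled points above 0 and 1 below it, partners 5 above, the oxidase 3 above, and granule proteins 0.

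The genes varied together across the 16 arrays, apart from Trem1. Within groups Trem1 varied with the others too, and Csf3r did so least. Each gene's Pearson r with the mean of the other 6, over the 16 arrays, was 0.74 to 0.86 for 6 genes and 0.32 for Trem1. After the group means were taken out, r was 0.39 for Csf3r, 0.56 to 0.83 for the other 5 and 0.68 for Trem1. Among genes outside the set, the 8 most like the mean of the 7 over the 16 arrays were Mefv (r = 0.91), Sema4f (0.90), Cd300lf (0.89), Gap43 (0.87), Ccr1 (0.86), Nme2 (0.86), Ushbp1 (0.85) and Gpr18 (0.85). Their r over deviations from the group means was lower, from 0.52 for Gpr18 to 0.86 for Mefv. Mefv, which encodes pyrin, averaged 0.01 ± 0.59 in unstressed and 0.23 ± 0.28 in stressed wounds of day 6, and -0.82 ± 0.29 and 0.23 ± 0.34 on day 14 (SD, n = 4). The chemokine receptor Ccr1 averaged 0.05 ± 0.43 and 0.33 ± 0.46 at day 6, and -2.33 ± 0.14 and 0.01 ± 0.93 on day 14. These correlations describe 16 arrays that share 4 group means, and were not tested.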

How the data were processed

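The table holds 45101 probe sets on 16 Affymetrix arrays. The program used was GeneSpring GX 11.0, per the series design text. How background was corrected and arrays were normalized is not given in the sources used here. Values deposited by the authors were read as log2; they are centred for each probe set, as the values show, with array medians of -0.01 to 0.05. The annotation table of the platform gave 1 gene symbol to 34958 probe sets, several to 932 and none to 9211, and 0 symbols changed through Entrez identifiers.

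The test was limma's (version 3.58.1, lmFit and eBayes, under R 4.3.3), fitted per gene on 4 group means over all 16 arrays, two-sided, with Benjamini-Hochberg adjustment over 18194 genes and a threshold of 0.05. Intervals are at 95%. Counts at an unadjusted p under 0.05 stand without the share of all genes, so they show no excess. No filter on low values was applied, so each of the 7 genes was tested. Simulated data with 100 genes changed by 1 and 100 by 2 gave back 73% and 96% of them for loading at day 14, with 9 false calls. The changed genes were drawn at random, and the noise was normal and independent between arrays, without Xist classes. These rates are therefore not those of the neutrophil genes, where S100a8 and S100a9 had SEs of 0.77 and 1.06. Replicates differed by an SD of at least 0.255. The pairing check correlated the deviations of same-numbered arrays from their group means and required over 0.1 in every pair, which held at day 14 only. Motifs were searched in the 250 bases before each start, leaving out the transcribed bases of the RefSeq windows.

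Members, lists and alternatives were chosen with earlier results of these data known. Genes named from a list are the 4 of smallest p for loading at day 14 and up to 3 for other comparisons, with further members named where a count of 5 or fewer or a role in the text called for it, chosen after their values were seen. Tables were made with pandas 2.3.3 and plots with matplotlib 3.10.9.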

Additional observations from a re-analysis of the deposited data

Results flagged for a closer look

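In 36 groups of 4 arrays (9 probe sets in 4 groups), 2 held an array far from the other 3, by Dixon's criterion at 95%, which chance meets in about 1 of 20 groups. Both lie in unstressed wounds of day 14, in replicate 1. S100a9 read -0.30 there, above the other 3 arrays at -3.43 to -3.14. Without that array the loading difference of S100a9 at day 14 was 4.19 (adjusted p = 0.035) in place of 3.43. Csf3r read -1.69 in the same array, below the other 3 at -0.96 to -0.83, and its loading difference was 0.70 without it (adjusted p = 0.25) in place of 0.91. The same array was thus the highest of its group for S100a9 and the lowest for Csf3r.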

How the results depend on the processing

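The number of neutrophil genes called for loading at day 14, 2 in the fit of all arrays, was 0 after quantile normalization, 1 with only the day 14 arrays, 5 with the replicate block, 4 with only the day 14 arrays and Xist class as a block, 1 in the high Xist arrays and 1 to 3 when 1 array was left out. For time in stressed wounds, 1 in that fit, it was 0 after quantile normalization and with only the high Xist arrays of day 14. It was 2 with only the groups compared (Clec4d and Clec4e, both lower) and 2 with Xist class as a block (Clec4d lower, S100a9 higher). With only the low Xist arrays of day 14 it was 1, S100a8 as higher, and Clec4d did not pass (adjusted p = 0.077). It was 0 to 1 when 1 array was left out. For time in unstressed wounds it was 3 after quantile normalization in place of 5, and 5 to 6 when 1 array was left out. For the difference between the loading effects it was 2 with array weights (S100a8 and Clec4d) and 1 in the low Xist arrays (S100a8), in place of 0. Paired by number, the arrays changed no other call of a neutrophil gene than those of S100a9, Csf3r and Fpr2 at day 14. The Xist classes and the fit within them were added after seeing the data as 3 alternatives.

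Directions turned only where the difference was small or uncalled. With array weights, loading at day 6 was 0.18 for Csf3r and 0.12 for Fpr2, and time in unstressed wounds was -0.028 for Trem1, which was -0.017 as the mean of its probe sets. With only the high Xist arrays of day 14, set against the low Xist arrays of day 6, time in stressed wounds was -0.23 for S100a8 and -0.17 for S100a9. When 1 array was left out, loading at day 6 spanned -1.25 to 0.47 for S100a9, -0.46 to 0.48 for Clec4e, -0.37 to 0.10 for Csf3r, -0.29 to 0.029 for Trem1 and -0.56 to 0.19 for Fpr2, and time in unstressed wounds -0.12 to 0.19 for Trem1. The causes were not tested.

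Over all genes, the 1483 called for loading at day 14 became 282 after quantile normalization, 95 with only the day 14 arrays, 2726 with array weights and 621 to 2695 when 1 array was left out. They numbered 3393 in the low and 485 in the high Xist arrays, 2232 with Xist class as a block and 692 with that block and only the day 14 arrays. For loading at day 6, 10 genes became 329 after quantile normalization, 453 with array weights, 24 with only the day 6 arrays, 1 with the replicate block and 2 to 9 when 1 array was left out. For the difference between loading effects, 7 genes (4 higher, 3 lower) became 5 (2 and 3) after quantile normalization, 569 with array weights, 1418 in the low and 40 in the high Xist arrays, 52 with Xist class as a block, 19 with the replicate block, and 1 to 191 when 1 array was left out, the highest without stressed replicate 4 of day 14. With 4 arrays per group and no absolute signal, the number of arrays limits the precision.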

Other observations

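Of 15 granule genes, 5 rose and 3 fell in stressed wounds between day 6 and day 14, where 24.0% of all genes rose and 34.3% fell. Ltf (lactoferrin) rose by 0.99 (SE 0.17, adjusted p = 0.00034), Ngp (neutrophilic granule protein) by 0.99 (SE 0.24, adjusted p = 0.0030), Camp (cathelicidin) by 0.90 (SE 0.19, adjusted p = 0.0014), Mpo by 0.78 (SE 0.17, adjusted p = 0.0014) and Ctsg by 0.36 (SE 0.14, adjusted p = 0.041). Hp fell by 2.40 (SE 0.77, adjusted p = 0.015), Chil3 by 2.31 (SE 0.72, adjusted p = 0.013) and Mmp9 by 1.41 (SE 0.56, adjusted p = 0.042). The serine proteases Elane (0.19, adjusted p = 0.29) and Prtn3 (-0.05, adjusted p = 0.75) did not pass. The receptor Cxcr2, outside that list, rose by 0.83 (SE 0.19, adjusted p = 0.0017). In unstressed wounds Mpo, Ngp and Ltf rose by 0.72, 0.64 and 0.47, while Camp differed by 0.30 (adjusted p = 0.20). Whether these changes differ between stressed and unstressed wounds is the test of the difference between loading effects, which 0 of 15 granule genes passed in limma, and 2 had an unadjusted p under 0.05.

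In the S100 family, the gene that changed most over time was S100a3, a protein of the hair cuticle, which rose by 6.12 in unstressed wounds (SE 0.81, adjusted p = 4.4e-05) and by 5.13 in stressed wounds (SE 0.81, adjusted p = 0.00015). S100a4, a protein of fibroblasts and macrophages, fell by 1.24 in unstressed wounds (SE 0.50, adjusted p = 0.046).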
